A study of Mus musculus with 2 samples.

Results

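The myosin heavy and light chain genes were compared between liver-metastatic 4T1-3R cells, called 4T1-3R_L here, and the 4T1 parental line they derive from. Members were defined by name, with earlier results of these data known. They are genes whose sole symbol on an array probe set begins with Myh, Myl or Myo followed by a digit. By this rule 47 of the 18193 genes with a single-symbol probe set qualified. Of these, 8 belong to non-muscle myosin II, 24 are unconventional myosins and 15 are sarcomeric or smooth muscle myosins. The 4T1 line is a mouse mammary carcinoma line that spreads to distant organs from the mammary fat pad. Per the labels, the 4T1-3R_L cells were recovered from liver metastases in an in vivo experiment and both populations were then cultured, with no drug or genetic change named for either. The labels used here do not give the host strain and age, or whether 4T1-3R_L is a clone or a pool. There was 1 Affymetrix array for each population, so no difference can be set against a spread between cultures and no test was run.

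Myosins are motors that turn ATP hydrolysis into movement along actin filaments. Non-muscle myosin II assembles heavy chains (Myh9, Myh10 or Myh14), essential light chains and regulatory light chains into bipolar filaments that contract actin, and phosphorylation of the regulatory light chain switches it on. Unconventional myosins carry vesicles and organelles, tether membranes to actin or build protrusions, and in carcinoma cells both kinds are studied for their parts in adhesion, migration and invasion.

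Values are MAS5 signals, which are linear probe set intensities scaled to the same trimmed mean of 500.003 on both arrays. A floor of 90.6, the median of all signals, stood in for background, and a gene was counted as measured where its probe set of highest mean signal on the log2 scale reached the floor on at least 1 array. Log2 ratios divide the signal of 4T1-3R_L cells by that of parental cells, once signals below the floor are raised to it. Of 6 carcinoma and epithelial markers, each measured in both populations, the keratin Krt8 had a log2 ratio of 0.22 and the other 5 had negative ones. These were -0.20 for Krt18, -0.38 for Krt7, -0.76 for Krt19, -0.99 for Cdh1 and -2.08 for Epcam, whose second probe set had -0.59. All 8 markers of hepatocytes, all 6 of endothelium and all 9 of fibroblasts or stellate cells were under the floor on both arrays. Among 7 leukocyte markers, Ptprc, Adgre1, Lyz2, Cd3e and Itgam were under the floor, Cd68 had signals of 374 and 388 in 4T1-3R_L and parental cells, and Csf1r had 88.1 in 4T1-3R_L cells against 1026 in parental cells. Among 4 erythroid and platelet markers, Hba-a1 and Gp9 were under the floor. Ppbp had 91.9 in 4T1-3R_L cells against 172 in parental cells, and Pf4 had 85.3 against 95.8. On bulk arrays, fewer cells of a type and less RNA per cell cannot be told apart. All 18 hybridisation control probe sets, which report labelled RNAs added to the hybridisation mix, were brighter on the 4T1-3R_L array, by 0.59 on average on the log2 scale. Scaling the arrays to these controls put the median log2 ratio over measured genes at -0.55, against -0.01 as deposited. Under that scaling a log2 ratio between 0 and 0.59, in the text or a caption, turns negative where both signals are above the floor, and signals near the floor can drop under it.

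Of the 47 myosin genes, 25 were measured and 22 lay under the floor on both arrays. A 2-fold higher signal or more in 4T1-3R_L cells was seen for 4 of the 25, beside 6.22% of 11135 measured genes, and a 2-fold lower signal or more for 2, beside 4.48%. The higher genes were Myh1, Myo5c, Myo6 and Myl6, and the lower genes were Myh14 and Myo19. Counting genes that reached the floor on both arrays, 3 of 21 myosins were higher by 2-fold or more and 2 of 21 lower by that much, beside 5.8% and 4.38% of 10070 genes. The other 19 measured myosins lay between, and 17 of 25 (68%) were within 0.5 of equal on the log2 scale, against 63.2% of all measured genes. The shares over 25 genes describe the family and do not set it apart. Myh13, Myh15, Myh16 and Myl5 had no single-symbol probe set and were not analysed here. Scaled to the hybridisation controls, 1 myosin (Myh1) was higher by 2-fold or more and 3 (Myh14, Myo19 and Myh10) were lower by that much.

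**Figure D1:**
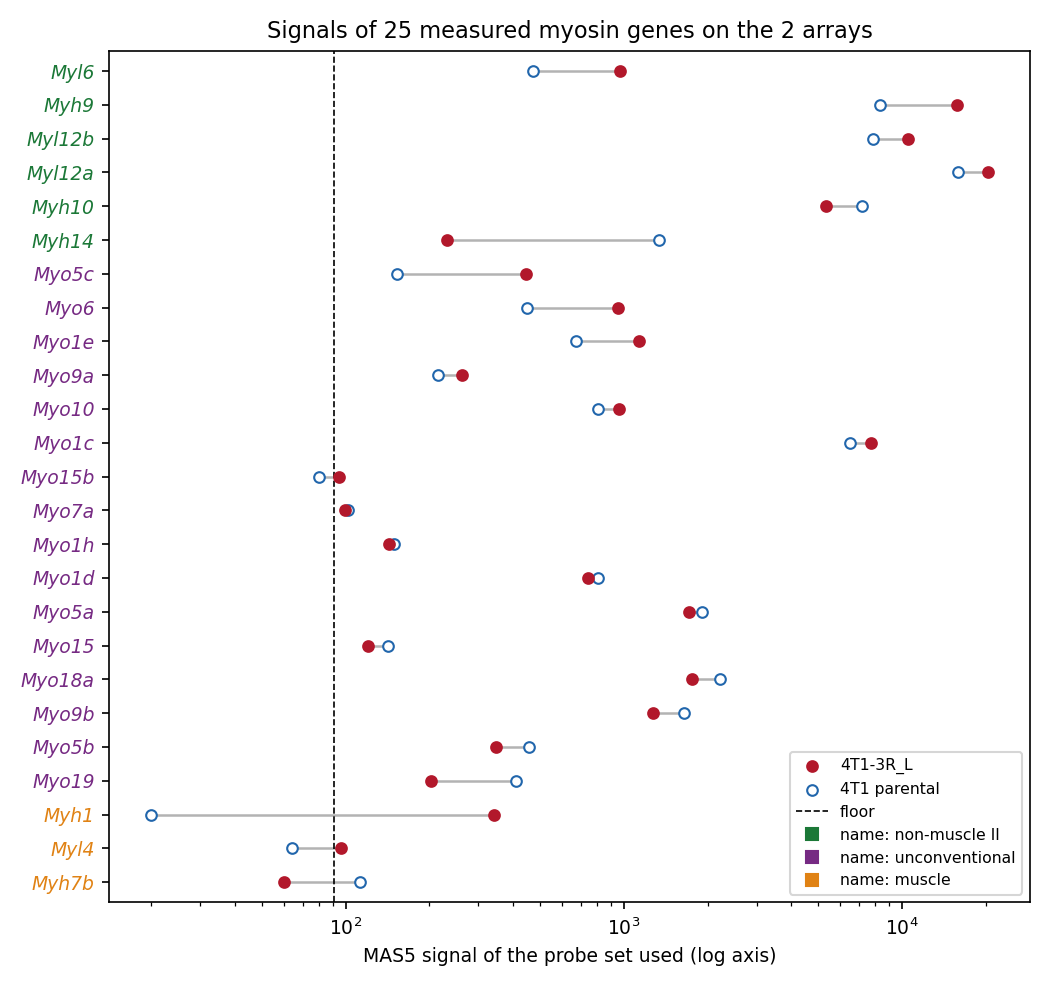
MAS5 signals of the probe set used for each of 25 measured myosin genes (log axis), filled for the 4T1-3R_L array and open for the parental array, with gene names coloured by class and a dashed line at the floor of 90.6. The widest gaps above the floor on both arrays are those of Myh14 (232 in 4T1-3R_L cells against 1337 in parental cells) and Myo5c (444 against 153).

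The heavy chains of non-muscle myosin II went in different directions. Myh14, the heavy chain of the IIC isoform, which is found mainly in epithelia, had a signal of 232 in 4T1-3R_L cells and 1337 in parental cells, which is 5.77-fold lower (log2 ratio -2.53). Myh9, the heavy chain of the IIA isoform and the main driver of contraction in many non-muscle cells, had 15697 in 4T1-3R_L cells and 8320 in parental cells, 1.89-fold higher (log2 ratio 0.92). Myh10, the heavy chain of the IIB isoform, had 5306 in 4T1-3R_L cells and 7181 in parental cells, 1.35-fold lower (log2 ratio -0.44).

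The other 4 probe sets of Myh9 were higher too, by smaller amounts. Their signals in 4T1-3R_L and parental cells were 4922 and 3075, 3890.1 and 2718, 1806 and 1246, and 173 and 141, with log2 ratios of 0.68, 0.52, 0.54 and 0.30. The size of the Myh9 difference therefore depended on the probe set. Its sign did so too under the hybridisation control scaling, where 3 of the 5 probe sets turned negative and their log2 ratios ran from -0.29 to 0.33 with a median of -0.05. The other Myh10 probe set was lower as well, at 99.2 in 4T1-3R_L cells against 148 in parental cells (log2 ratio -0.57). For Myh14 a single probe set was available, so no second one bears on it.

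A scaling by 1 factor for each array moves every gene alike, so the gap between isoforms is the same under it. The log2 ratio of Myh9 exceeded that of Myh14 by 3.44 and that of Myh10 by 1.35, and the log2 ratio of Myh10 exceeded that of Myh14 by 2.09. The gap between Myh9 and Myh14 stayed between 3.06 and 3.44 under 10 alternative settings. Under the hybridisation control scaling the probe sets used gave log2 ratios of 0.33 for Myh9, -1.03 for Myh10 and -3.12 for Myh14. Of the 6 epithelial markers given above, 5 were lower on the same array, with Epcam at -2.08 and -0.59 by probe set, and Krt8 was not. Whether the lower Myh14 signal moves with epithelial state was not tested.

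The promoters of the heavy chain genes are shown because these isoforms differed in direction. Each line gives the 250 bases before the RefSeq start site of build GRCm38.p6, for Myh9 at chr15:77842176-77842425 on the minus strand, for Myh10 at chr11:68691665-68691914 on the plus strand and for Myh14 at chr7:44670844-44671093 on the minus strand. Capitals mark the CCAAT box, read as CCAAT on either strand, so that it also appears as ATTGG.
Myh9: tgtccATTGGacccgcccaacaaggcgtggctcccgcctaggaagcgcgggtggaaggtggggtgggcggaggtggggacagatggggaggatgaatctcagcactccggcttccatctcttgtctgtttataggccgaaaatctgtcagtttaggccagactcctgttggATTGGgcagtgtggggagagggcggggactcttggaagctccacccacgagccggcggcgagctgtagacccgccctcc
Myh10: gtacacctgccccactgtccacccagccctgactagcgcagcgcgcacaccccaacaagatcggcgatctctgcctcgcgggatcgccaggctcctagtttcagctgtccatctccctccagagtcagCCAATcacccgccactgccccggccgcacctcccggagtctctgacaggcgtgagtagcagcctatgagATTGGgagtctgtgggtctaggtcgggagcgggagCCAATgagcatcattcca
Myh14: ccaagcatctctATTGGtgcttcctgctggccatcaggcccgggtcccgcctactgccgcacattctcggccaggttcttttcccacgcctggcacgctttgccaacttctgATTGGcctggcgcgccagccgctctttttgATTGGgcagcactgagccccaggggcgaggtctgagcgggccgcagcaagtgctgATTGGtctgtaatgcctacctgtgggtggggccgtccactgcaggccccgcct
The windows held 2 CCAAT boxes for Myh9, 3 for Myh10 and 4 for Myh14. Over 32851 promoter windows of the same length, 33.8% held at least 1, 2.79% at least 3 and 0.84% at least 4. The GC box GGGCGG occurred 4 times before Myh9 and was not found before Myh10 or Myh14. Of all windows, 32.7% held at least 1 GC box and 4.09% at least 4. No occurrence of one of these motifs overlapped another, and a match describes letters only.

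The 3 measured light chains of non-muscle myosin II had higher signals in 4T1-3R_L cells, of which Myl12a and Myl12b turn lower under the hybridisation control scaling. Myl6, the essential light chain of non-muscle and smooth muscle myosin II, had 968 in 4T1-3R_L cells and 470.3 in parental cells on its single-symbol probe set, 2.06-fold higher (log2 ratio 1.04). A further 2 probe sets name Myl6 together with the predicted genes Gm8894 and Gm5526. Their signals were 14719 in 4T1-3R_L cells against 11767 in parental cells (log2 ratio 0.32) and 19828 against 11853 (log2 ratio 0.74). Both were higher in 4T1-3R_L cells by less than 2-fold, and they were left out of the counts because they name several genes.

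The regulatory light chains Myl12a and Myl12b, which carry the phosphorylation site that switches myosin II on, had nearly equal ratios. Myl12a had 20339 in 4T1-3R_L cells and 15886 in parental cells (log2 ratio 0.36), and a further probe set gave 811 against 704.5 (log2 ratio 0.20). Myl12b had 10458 in 4T1-3R_L cells and 7830.1 in parental cells (log2 ratio 0.42). The genes are direct neighbours on chromosome 17 and close paralogs, and cross-binding of their probes was not tested. Under the hybridisation control scaling both ratios turned negative, to -0.23 for Myl12a and -0.17 for Myl12b, still above the median gene. A further regulatory light chain, Myl9, abundant in smooth muscle, had signals of 18.5 and 9.40 in 4T1-3R_L and parental cells, under the floor on both arrays, as was the essential light chain Myl6b (60.8 and 11).

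Set against each other, the 6 measured non-muscle myosin II genes had a median log2 ratio of 0.39 and the 16 measured unconventional myosins a median of -0.05, with -0.01 for all measured genes. The difference between the medians was 0.44, and it lay between 0.30 and 0.44 under the 10 alternatives. The ranges overlapped: myosin II genes ran from -2.53 to 1.04 and unconventional myosins from -1.01 to 1.54. The myosin II median thus stood above the other while its lowest member, Myh14, stood below every unconventional myosin measured. Within myosin II, the 3 heavy chains had a median of -0.44 and the 3 measured light chains a median of 0.42. The unconventional set holds no light chains, and the median of the myosin II heavy chains lay below its median of -0.05. Scaled to the hybridisation controls the medians were -0.20 for myosin II and -0.56 for unconventional myosins, beside -0.55 for all genes.

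**Figure D2:**
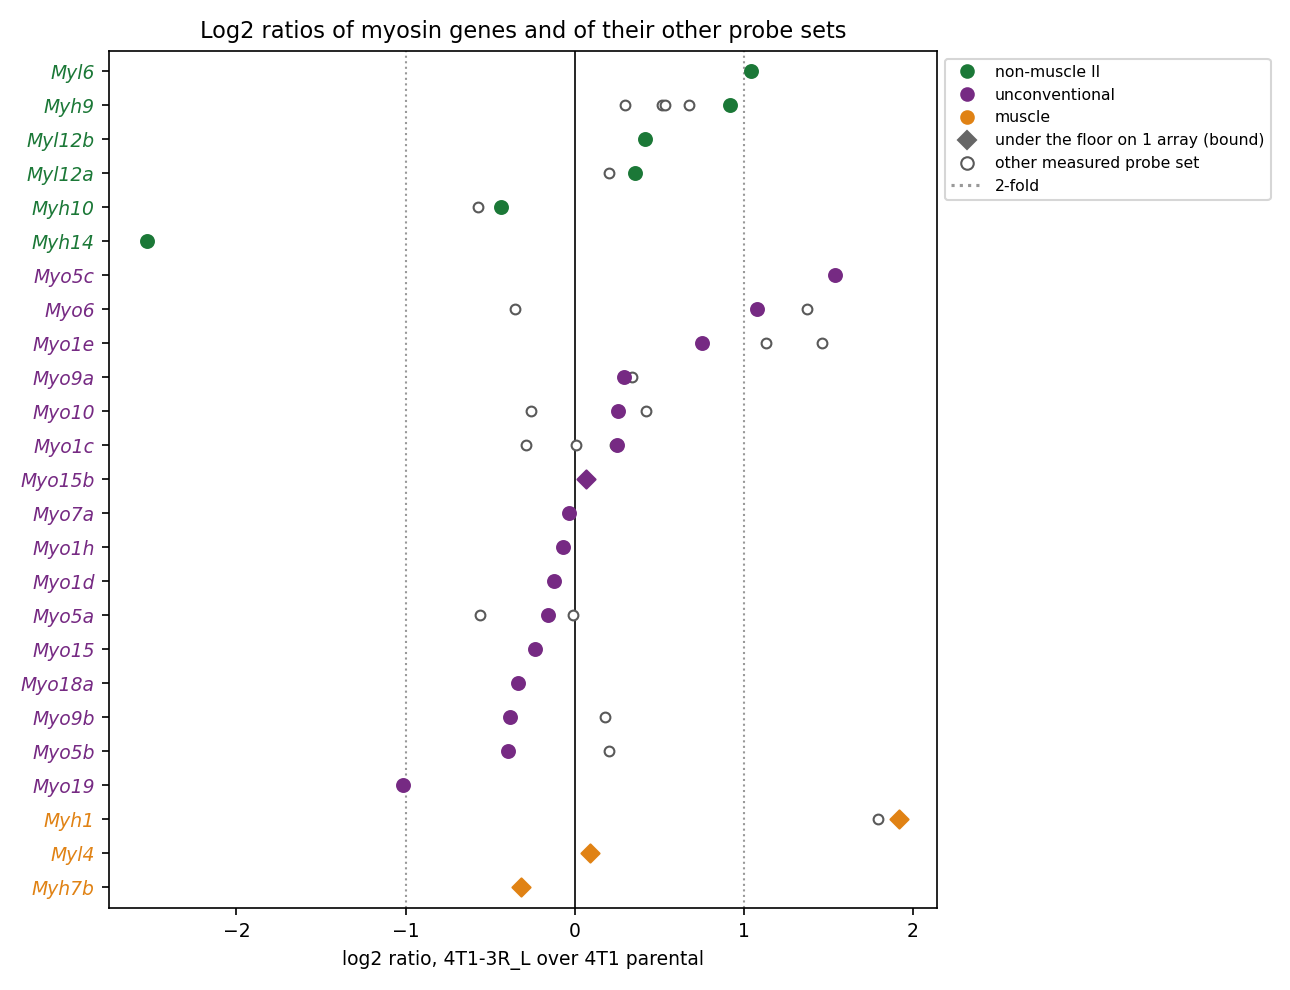
Log2 ratios of 4T1-3R_L over parental signals for 25 measured myosin genes, coloured by class, with open circles for other measured probe sets of the same gene, diamonds for genes under the floor on 1 array and dotted lines at 2-fold. Myh14 stands alone at -2.53, the 5 Myh9 probe sets lie between 0.30 and 0.92, and the Myo6 probe sets lie on both sides of 0.

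Among the vesicle motors, Myo5c and Myo6 were higher in 4T1-3R_L cells while Myo5a and Myo5b were not. Myo5c, a class V myosin of secretory epithelia, had 444 in 4T1-3R_L cells and 153 in parental cells, 2.90-fold higher (log2 ratio 1.54). Its second probe set was under the floor on both arrays (6.50 and 25.5). Myo6, the motor that walks towards the minus end of actin filaments and acts in endocytosis, had 949 in 4T1-3R_L cells and 449 in parental cells, 2.11-fold higher (log2 ratio 1.08).

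The other Myo6 probe sets disagreed with each other. One had 234.5 in 4T1-3R_L cells against 76.7 in parental cells, where the ratio is a bound of 1.37 on the log2 scale, and another had 64.0 against 115.6, where the ratio is a bound of -0.35 on the log2 scale. Myo5a, which carries melanosomes and other vesicles, had 1715 in 4T1-3R_L cells and 1912.5 in parental cells (log2 ratio -0.16, with -0.56 and -0.01 on its other probe sets). Myo5b, a partner of recycling endosomes, had 347 in 4T1-3R_L cells and 455.5 in parental cells (log2 ratio -0.39), but its second probe set had 116 against 101 (log2 ratio 0.20). The direction of Myo5b is therefore not settled by these arrays. Myo5a and Myo5c are direct neighbours on chromosome 9, and their log2 ratios differed by 1.69. Under the hybridisation control scaling Myo5c had a log2 ratio of 0.95 and Myo6 of 0.49, both positive and under 2-fold.

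Class I myosins, single-headed motors that link membranes to actin, were led by Myo1e, which acts in endocytosis and at invasive adhesions. Its probe set with the strongest signal had 1133 in 4T1-3R_L cells and 672.5 in parental cells, 1.69-fold higher (log2 ratio 0.75). Its other measured probe sets were more than 2-fold higher, with 755 in 4T1-3R_L cells against 345 in parental cells (log2 ratio 1.13) and 609 against 221 (log2 ratio 1.46). All 3 measured probe sets thus agree in sign, and with the median over probe sets Myo1e joined the genes at least 2-fold higher. A further Myo1e probe set was under the floor on both arrays (59.6 in 4T1-3R_L cells, 75.1 in parental cells). Under the hybridisation control scaling the probe set used had a log2 ratio of 0.16. Of 4 Myo1e probe sets measured under that scaling, 1 was negative, at -0.02. Myo1c, a widely expressed class I motor, had 7754 in 4T1-3R_L cells and 6513 in parental cells (log2 ratio 0.25, negative under the hybridisation control scaling), with other probe sets from -0.29 to 0.24. Myo1d (log2 ratio -0.12) and Myo1h (-0.07) were near equal. Myo1a, Myo1f and Myo1g, known from intestinal brush border and blood cells, were under the floor.

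The promoters of Myo5c, Myo6 and Myo1e are shown because their genes were the highest unconventional myosins. They are the 250 bases before the start at chr9:75231764-75232013, chr9:80164784-80165033 and chr9:70207100-70207349 of GRCm38.p6, all on the plus strand. Capitals mark the CCAAT box in Myo5c and Myo6, and in Myo1e the CArG box, the element bound by serum response factor.
Myo5c: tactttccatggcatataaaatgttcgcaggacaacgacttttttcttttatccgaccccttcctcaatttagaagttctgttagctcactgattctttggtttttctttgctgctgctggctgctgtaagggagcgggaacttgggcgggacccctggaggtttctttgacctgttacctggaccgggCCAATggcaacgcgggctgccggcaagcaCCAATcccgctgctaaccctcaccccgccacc
Myo6: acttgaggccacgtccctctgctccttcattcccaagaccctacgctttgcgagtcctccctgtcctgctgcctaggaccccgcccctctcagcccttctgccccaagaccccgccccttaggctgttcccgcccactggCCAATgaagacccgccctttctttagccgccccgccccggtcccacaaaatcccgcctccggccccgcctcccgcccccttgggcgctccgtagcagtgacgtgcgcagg
Myo1e: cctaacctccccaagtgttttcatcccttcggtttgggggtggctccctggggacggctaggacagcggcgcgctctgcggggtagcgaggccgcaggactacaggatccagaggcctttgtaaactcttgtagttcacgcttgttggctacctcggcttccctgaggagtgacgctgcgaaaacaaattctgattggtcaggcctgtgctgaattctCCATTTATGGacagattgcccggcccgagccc
The Myo6 window held 7 GC boxes and 1 CCAAT box, and the Myo5c window held 1 GC box and 2 CCAAT boxes. At least 4 GC boxes were found in 4.09% of all windows. The Myo1e window held 1 CArG box and 1 CCAAT box. A CArG box on either strand was found in 1.47% of all windows.

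Myosins of protrusions and of other classes mostly lay near equal. Myo10, which carries cargo to the tips of filopodia, had 963 in 4T1-3R_L cells and 805 in parental cells (log2 ratio 0.26, with 0.42 and -0.26 on its other measured probe sets, and negative under the hybridisation control scaling). Myo7a (99.6 in 4T1-3R_L cells, 102 in parental cells), Myo15 (120.5 and 142) and Myo15b (95.0 and 80.0) were close to the floor, and Myo3a, Myo3b and Myo7b were under it. Myo9a, a class IX motor, had 262 in 4T1-3R_L cells and 214 in parental cells (log2 ratio 0.29, negative under the hybridisation control scaling). Its relative Myo9b had 1268 in 4T1-3R_L cells and 1650.0 in parental cells (log2 ratio -0.38), with 0.18 on its second probe set. Myo18a, a Golgi-linked myosin, had 1753 in 4T1-3R_L cells and 2211 in parental cells (log2 ratio -0.33).

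Myo19, the motor of mitochondria, was the lowest unconventional myosin, with 203 in 4T1-3R_L cells and 409 in parental cells, 2.02-fold lower (log2 ratio -1.01). Its second probe set was under the floor on both arrays, with 88.8 in 4T1-3R_L cells and 52.4 in parental cells, the other way. The ratio of the probe set used sits at the 2-fold line. It was -0.98 with median centring, -0.99 with loess and -0.91 with a pseudocount of 32. Myo16 and Myo18b were under the floor.

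Muscle myosins were mostly not detected above the floor. Of 15 sarcomeric and smooth muscle members 12 were under it, with signals up to 64.2 in 4T1-3R_L cells and up to 62.3 in parental cells. They include the smooth muscle heavy chain Myh11 (24.4 and 3.90) and the heart and slow muscle chain Myh7 (9.90 and 2.80), with 4T1-3R_L cells named first. The others were the heavy chains Myh2, Myh3, Myh4, Myh6 and Myh8 and the light chains Myl1, Myl2, Myl3, Myl7 and Myl10. Of the 3 that reached the floor, Myh1, a fast skeletal heavy chain, had the highest signal, with 343 in 4T1-3R_L cells and 20 in parental cells, at least 3.78-fold higher. A second Myh1 probe set had 315 in 4T1-3R_L cells against 3.10 in parental cells, and another was under the floor (14.4 and 5.70).

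The 2 bright Myh1 probe sets have names ending in _x_at and _a_at, marks of probes that also match other sequences or several transcripts, and the dim one ends in plain _at. Myh1 has close paralogs beside it on chromosome 11, and the 6 sarcomeric heavy chains under the floor, paralogs included, reached at most 20.1 in 4T1-3R_L cells and 24.7 in parental cells. Of 17 other sarcomere genes 11 were under the floor on both arrays, among them Ckm, Myod1, Myog, Ttn, Neb and Tnnt3. The summed signal of those 17 was 4309 in 4T1-3R_L cells and 8875 in parental cells, most of it from the troponin Tnnt2 (3359 and 7901). Of the 6 measured, Tnnc1, a troponin of heart and slow muscle, was the 1 with a higher signal, at 255 in 4T1-3R_L cells and 147 in parental cells (log2 ratio 0.80). What the Myh1 probe sets bound was not tested. The size of the Myh1 bound followed the floor, with a log2 ratio of 2.60 for a floor at the 40th percentile and 1.02 at the 60th. Myl4 (96.5 in 4T1-3R_L cells, 64.0 in parental cells) and Myh7b (60.3 and 113) crossed the floor on 1 array.

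**Figure D3:**
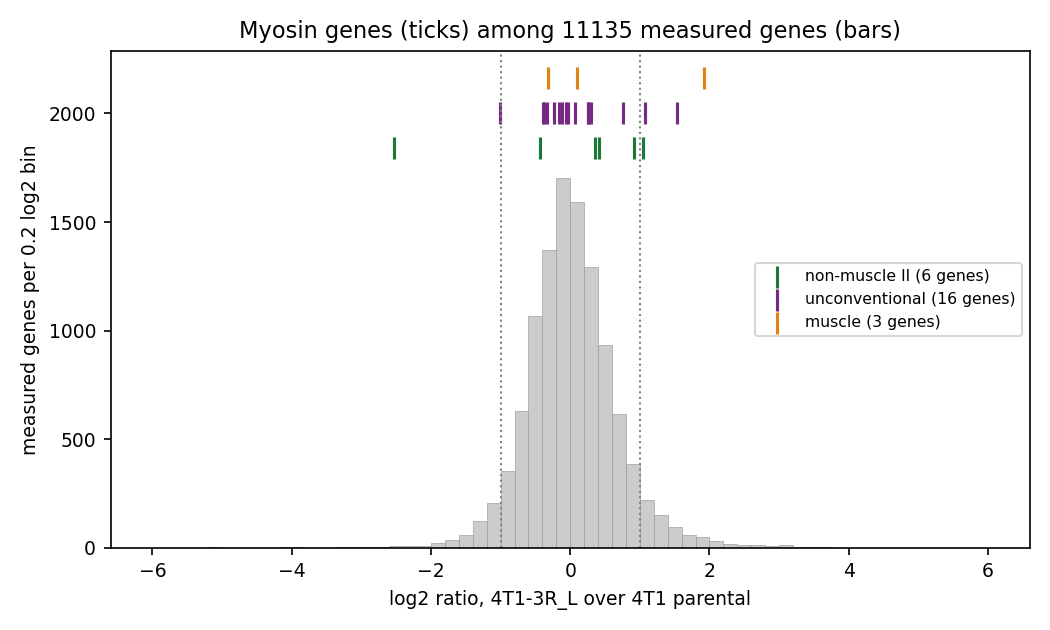
Numbers of measured genes per bin of the log2 ratio of 4T1-3R_L over parental signals (bars, 11135 genes), with ticks above for 6 non-muscle myosin II, 16 unconventional and 3 muscle myosins and dotted lines at 2-fold. Most ticks stand over the centre of the distribution, with Myh14 far left at -2.53 and Myh1 far right at 1.92.

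Where a gene had several probe sets, they could be set against each other on the same pair of arrays. Among 12 measured myosins with further measured probe sets, 16 of 21 such probe sets (76.2%) had the sign of the one used, against 68.1% over all measured genes. The 5 with the opposite sign belonged to Myo10, Myo1c, Myo5b, Myo6 and Myo9b. The median absolute difference between the log2 ratios of probe sets was 0.38 in the myosins and 0.37 over all genes. Log2 ratios smaller than this, such as those of Myl12a, Myo9a, Myo10, Myo1c, Myo1d, Myo5a and Myo18a, are smaller than this median disagreement.

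Other genes that control or bind myosins were then compared by list. Kinases and phosphatase subunits that act on the regulatory light chain went both ways. Of 18 measured, 1 was higher and 1 lower by 2-fold or more, near the 6.22% and 4.48% of all measured genes. Mylk, the myosin light chain kinase, was higher, with 325 in 4T1-3R_L cells and 135 in parental cells (2.41-fold). Another Mylk probe set had 107.7 in 4T1-3R_L cells against 39.3 in parental cells, where the ratio is a bound of 0.25 on the log2 scale. Dapk2, a death-associated kinase able to phosphorylate the light chain, was lower, with 106 in 4T1-3R_L cells and 390.0 in parental cells (3.68-fold). The related kinase Stk17b lay just short of 2-fold on the probe set used (log2 ratio -0.98), but its other probe sets had -0.45 and -0.01. Dapk1 had 22.7 in 4T1-3R_L cells, under the floor, against 172 in parental cells, at least 1.90-fold lower. Rock1, a kinase that acts on the light chain and its phosphatase, had 3048 in 4T1-3R_L cells and 2840.2 in parental cells (log2 ratio 0.10). The other Rock1 probe sets had 0.12, -0.24 and -0.48, so its direction depended on the probe set. Ppp1r12a, the myosin-targeting subunit of the phosphatase, had 3877 in 4T1-3R_L cells and 2699 in parental cells (log2 ratio 0.52), but 0.16, -0.28 and -0.69 on its other probe sets. The list median was -0.26. Rock2 had no single-symbol probe set and was not analysed here.

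Among actins, tropomyosins and other actin-binding genes, 0 of 16 measured were 2-fold apart in either direction, beside 10.7% of all measured genes, and the list median was 0.24. Actb had 32312 in 4T1-3R_L cells and 27937.5 in parental cells (log2 ratio 0.21, but 1.18 on a second probe set) and Actg1 had 31672 against 28377 (0.16). Tpm1, a tropomyosin that governs myosin access to actin, had 8541 in 4T1-3R_L cells and 11720.1 in parental cells (log2 ratio -0.46). The other Tpm1 probe sets had -1.14 and -0.48. Tpm2 had a log2 ratio of 0.50, with 0.10, 0.07 and a bound of 0.73 on its other probe sets. Cald1, an inhibitor of actomyosin, had a log2 ratio of 0.13, with 0.06, 0.35 and -0.05 on its other probe sets. Lima1, an actin cross-linker, had 0.48, with 0.51, 0.57 and -0.14 on its other probe sets. The smooth muscle genes Acta2 (159 in 4T1-3R_L cells, 205 in parental cells) and Tagln (12.5 and 19.9) were low or under the floor. Of 9 smooth muscle markers, these included, 6 were under the floor on both arrays. Smtn was well above it, with 1375 in 4T1-3R_L cells and 1217 in parental cells (log2 ratio 0.18). Des reached it in parental cells only (15.9 in 4T1-3R_L cells, 106 in parental cells).

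Serum response factor, its MRTF coactivators and their targets, many of them cytoskeletal, had a list median of 0.48 over 9 measured genes with 0 at least 2-fold apart, beside 10.7% of all. Of the 9, 7 had positive log2 ratios and 2 negative ones, Fhl2 with -0.39 and Ccn2 with -0.30. Zyx, a focal adhesion protein, had 4059 in 4T1-3R_L cells and 2288 in parental cells (log2 ratio 0.83). Its second probe set had 95.9 in 4T1-3R_L cells against 67.9 in parental cells, where the ratio is a bound of 0.08 on the log2 scale. Ccn1, a secreted matricellular protein, had 7905 in 4T1-3R_L cells and 4542 in parental cells (log2 ratio 0.80, and 0.87 to 0.98 on 3 others). Cnn2, an actin-binding calponin, had 0.65 and Vcl, the adhesion protein vinculin, 0.48, with 0.18 on the second Vcl probe set. Srf itself had 1274 in 4T1-3R_L cells and 914 in parental cells (log2 ratio 0.48, with -0.39 on its second probe set). Scaled to the hybridisation controls the list median was -0.11, which is 0.44 above the median gene.

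Genes whose products bind myosins included 1 higher by 2-fold or more and 0 lower by that much among 19 measured, beside 6.22% and 4.48% of all. Dab2, a clathrin adaptor that links Myo6 to endocytic vesicles, had 2650.2 in 4T1-3R_L cells and 955 in parental cells (2.78-fold), and its other probe sets had log2 ratios of 1.94, 0.78 and 1.39. Gipc1, another Myo6 adaptor, was lower, with 720.5 in 4T1-3R_L cells and 1295 in parental cells (log2 ratio -0.85). Rab11fip2, which joins Myo5b to recycling endosomes, had 727 in 4T1-3R_L cells and 1337 in parental cells (log2 ratio -0.88, and -0.81 by another probe set). S100a4, a calcium-binding protein that binds the Myh9 heavy chain and loosens its filaments, had 30340.4 in 4T1-3R_L cells and 16724 in parental cells (log2 ratio 0.86). The list median was -0.00.

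**Figure D4:**
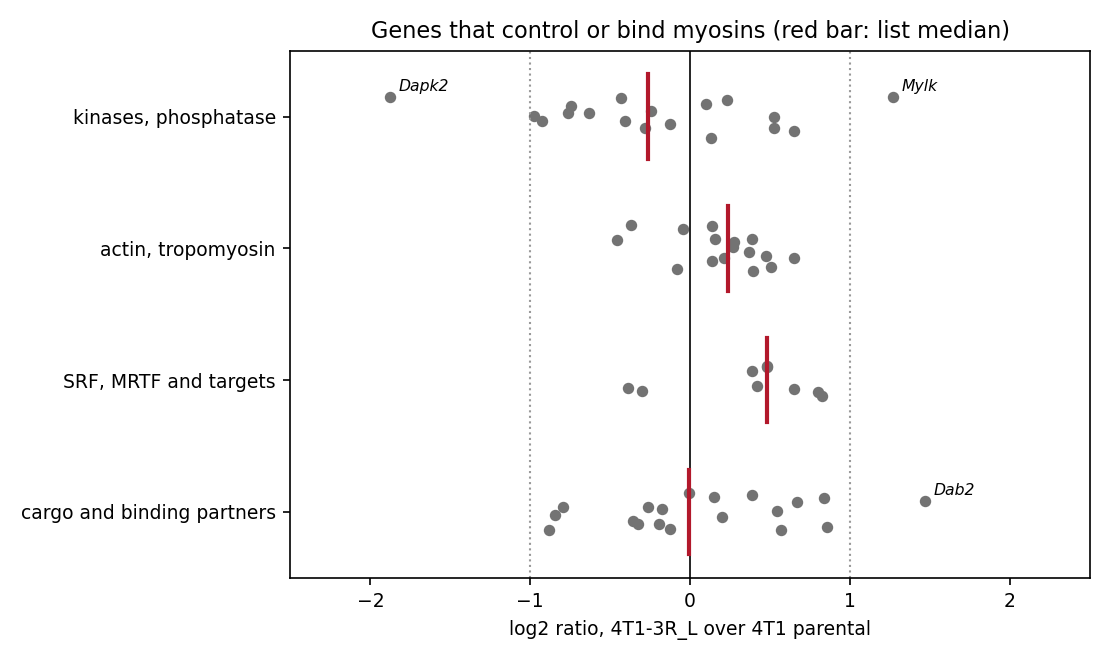
Log2 ratios of 4T1-3R_L over parental signals for the measured genes of 4 lists of myosin regulators and partners, 1 grey point a gene, with red bars at the list medians and names for genes at least 2-fold apart. Medians run from -0.26 for the kinases and phosphatase subunits to 0.48 for serum response factor and its targets.

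**Figure D5:**
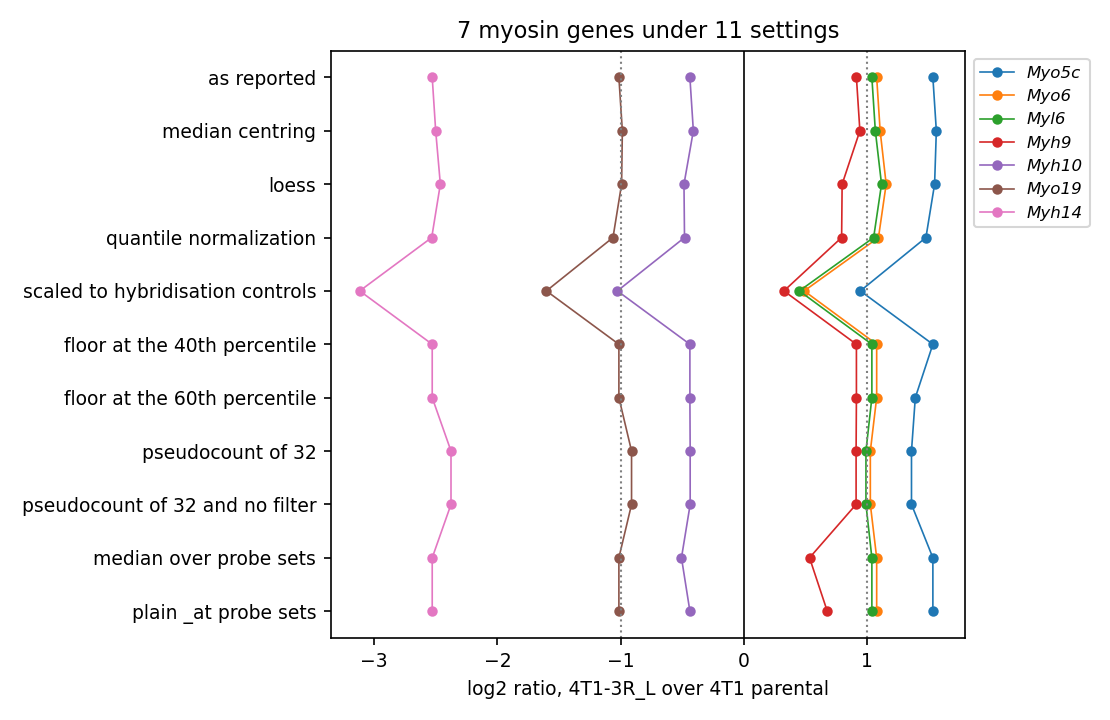
Log2 ratios of 4T1-3R_L over parental signals for 7 myosin genes under the reported setting and 10 alternatives, 1 line a gene, with dotted lines at 2-fold. Myh14 stays between -3.12 and -2.38 and Myh9 between 0.33 and 0.94, and the hybridisation control scaling puts each of the 7 genes further left.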

How the data were processed

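RNA of 2 cultures was measured on 1 Affymetrix array each, after conversion to biotin-labelled cRNA per the labels' protocols. The deposited values are MAS5 signal intensities on a linear scale, per the submitters' processing notes; the MAS5 version, its scaling target, detection calls and genome build: not given in the sources used here. Each of 45101 probe sets had a value on both arrays.

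Signals were scaled to a common mean after trimming 2% at each end, which left them as they were. Signals under the floor of 90.6 were raised to it before log2. Names came from GEO's platform annotation, in which 34958 had a single symbol, 932 had several and 9160 other than 64 controls were unnamed; 34754 single-symbol probe sets matched RefSeq by Entrez identifier. Promoter windows come from RefSeq (GRCm38.p6), which held 53 windows for 42 of 47 members. With 1 array a group there was no test, and the number of arrays limits the precision. Some listed genes are not reported here. Folds with 1 array below the floor are lower bounds.

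The members, gene lists, rule for named genes (every measured member, list genes at least 2-fold apart or the 4 largest, and fixed regulators) and alternatives were chosen with earlier results of these data known. The alternatives were median centring, quantile normalization, loess (span 0.3), hybridisation control scaling, floors at the 40th and 60th percentiles, a pseudocount of 32 with and without the filter, the median over probe sets, and plain _at probe sets. Computations used Python 3.11.15, pandas 2.3.3, numpy 2.4.6 and statsmodels 0.14.6, and were tested on simulated data.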

Additional observations from a re-analysis of the deposited data

Results flagged for a closer look

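Signals outside the probe sets used were found for Myl6. The 2 probe sets that name it together with Gm8894 and Gm5526 had log2 ratios of 0.32 and 0.74, both higher in 4T1-3R_L cells, while the single-symbol probe set had 1.04. They were singled out because their signals lie in probe sets the gene comparison does not use and were above those of the parental array.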

How the results depend on the processing

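Of 240 values of single myosins under 10 alternatives, 214 moved by less than 1.5 times, 26 moved by more and 0 of the genes at least 2-fold apart changed sign. Scaling to the hybridisation controls accounted for most: it gave 1 myosin higher by 2-fold or more, and over all measured genes 243 higher and 2378 lower by that much (693 and 499 as reported), a myosin II median of -0.20, and list medians of -0.87 for kinases and phosphatase subunits, -0.35 for actin partners, -0.11 for serum response factor and targets and -0.59 for myosin partners. Under it Myl12a, Myl12b, Myo1c, Myo9a, Myo10 and Myo15b turned negative, as did 3 of 5 Myh9 probe sets, and Myl4 was under the floor. The number of myosins at least 2-fold lower was 1 with median centring, loess and the pseudocount of 32 with or without the filter, where Myo19 came just short. The number at least 2-fold higher was 3 to 5 under the other 9 alternatives. Myo5b was 0.20 with plain _at probe sets, where Myh1 was not measured. The medians of unconventional myosins ran from -0.56 to 0.06, so their sign is not settled. No paired analysis was possible because each group has 1 array. Signals near the floor, and single probe sets as for Myh14, Myl6, Myo5c and Myo19, limit what these arrays can show.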

Other observations

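The CArG box, bound by serum response factor, was found in 6 of 53 promoter windows of the myosin genes (11.3%), against 1.47% of 32851 windows of the same 250 bases. The 6 were windows of Myl3, Myl6, Myl7, Myl9, Myh4 and Myo1e, of which Myl6 and Myo1e were measured on these arrays, with log2 ratios of 1.04 and 0.75. The Myl6 box lay in 1 of its 2 windows. The CCAAT box was at 34.0% of myosin windows against 33.8% of all, the E-box CAGGTG at 13.2% against 17.2%, and GGAATG at 22.6% against 12.6%, all read on both strands. Windows of 1 gene can overlap, and these shares are descriptions of letters with no test.

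Of the 47 myosin genes 15 lie on chromosome 11, among them the row Myh3, Myh2, Myh1, Myh4 and Myh8 with no other protein-coding gene between neighbours. In that row 2 of the 3 Myh1 probe sets reached the floor, on the 4T1-3R_L array, and no probe set of Myh2, Myh3, Myh4 or Myh8 did.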
